A study of Mus musculus with 30 samples.

Results

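The Rhox genes are homeobox genes that lie side by side on the mouse X chromosome. Members were taken as the Ensembl rows of the deposited expression table whose mouse symbol is Rhox followed by a number. The rule found 41 members, 34 genes and 7 pseudogenes by name, among 65534 rows. They span 1092 kb, at chrX:37213804-38306028 of GRCm38 in the GENCODE M21 annotation. Rhox7-ps2, which also carries the name, was not analysed here.

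Expression was measured by sequencing polyadenylated RNA from male mice, C57BL/6J with less than 10% 129S1/SvImJ, that carried Prdm9+/+, Prdm9+/- or Prdm9-/-. Each of the 30 libraries came from 1 animal, and the animals belonged to 14 litters. At 8 days postpartum (dpp) there were 3 Prdm9+/+, 2 Prdm9+/- and 5 Prdm9-/- animals. At 12 dpp there were 1, 4 and 5 of these genotypes, and at 16 dpp 2, 3 and 5. Prdm9+/+ and Prdm9+/- animals together are called non-mutant, which gave 5 libraries of each class at each age. The labels call the material germ cells enriched from testes, obtained by enzyme digestion and washing of the tubules, and name no sort. Values are TPM, which are scaled to the library's total and by transcript length, so that levels can be set side by side between genes. Sequencing depth is unknown, because TPM does not keep it. A low value may rest on few reads.

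Rhox proteins are homeodomain transcription factors, which bind DNA through a conserved helical fold. The family is known for its expression in testis, ovary and placenta. In the mouse testis some members, such as Rhox5 and Rhox8, are known from Sertoli cells, the somatic nurse cells of the tubule, and others, such as Rhox10 and Rhox13, from germ cells. Part of the cluster was duplicated repeatedly in the mouse lineage, which left tandem copies of Rhox2, Rhox3 and Rhox4. PRDM9 is the histone methyltransferase that marks meiotic recombination sites, and spermatocytes without it are known to arrest in prophase of meiosis. In normal pachytene spermatocytes the X chromosome is transcriptionally silenced.

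The upstream sequences below are shown because Rhox2 copies are nearly the same there, as Rhox4 copies are among themselves. The subfamilies set side by side in the results differ. Each run is the 250 bases before the gene's start in RefSeq (GRCm38.p6), 5′ to 3′ on the gene's strand, with CpG dinucleotides, the sites of DNA methylation, in capitals. RefSeq promoters were given for 28 of the members. Rhox2a, Rhox2d and Rhox2h are 3 of the Rhox2 copies, Rhox4e is a copy from the interleaved Rhox4 subfamily and Rhox13 is a single-copy gene from the far side of the cluster.
Rhox2a, chrX:37244742-37244991, plus strand: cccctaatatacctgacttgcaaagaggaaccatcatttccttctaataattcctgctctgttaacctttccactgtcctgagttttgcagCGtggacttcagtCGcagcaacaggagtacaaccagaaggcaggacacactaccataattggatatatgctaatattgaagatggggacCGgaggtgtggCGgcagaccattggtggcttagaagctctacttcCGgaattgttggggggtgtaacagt
Rhox2d, chrX:37493160-37493409, plus strand: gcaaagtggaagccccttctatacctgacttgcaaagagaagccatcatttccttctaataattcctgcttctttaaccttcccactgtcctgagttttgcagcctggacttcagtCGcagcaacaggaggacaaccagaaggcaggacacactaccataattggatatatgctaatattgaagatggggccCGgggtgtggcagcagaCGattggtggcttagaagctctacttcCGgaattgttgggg
Rhox2h, chrX:37673278-37673527, minus strand: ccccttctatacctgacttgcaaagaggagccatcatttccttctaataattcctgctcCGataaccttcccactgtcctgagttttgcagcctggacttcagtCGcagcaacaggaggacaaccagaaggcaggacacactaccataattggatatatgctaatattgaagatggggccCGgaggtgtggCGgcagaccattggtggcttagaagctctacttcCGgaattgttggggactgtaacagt
Rhox4e, chrX:37557162-37557411, plus strand: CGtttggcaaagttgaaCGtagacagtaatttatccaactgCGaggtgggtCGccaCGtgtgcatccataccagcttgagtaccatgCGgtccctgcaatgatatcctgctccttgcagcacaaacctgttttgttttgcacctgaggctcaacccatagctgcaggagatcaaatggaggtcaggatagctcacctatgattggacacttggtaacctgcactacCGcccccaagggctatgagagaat
Rhox13, chrX:38120590-38120839, plus strand: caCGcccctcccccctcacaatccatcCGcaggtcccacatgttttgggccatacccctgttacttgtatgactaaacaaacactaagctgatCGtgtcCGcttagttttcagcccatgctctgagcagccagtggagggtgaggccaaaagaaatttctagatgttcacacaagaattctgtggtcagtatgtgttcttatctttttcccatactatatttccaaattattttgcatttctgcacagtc

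Upstream runs of Rhox2a, Rhox2d and Rhox2h share most of their letters and hold 5, 4 and 5 CpG. Windows of 300 bases, 250 before and 50 after the start, were aligned in pairs, and identity was taken over the aligned bases only. By this measure the 7 Rhox2 promoters were 94.0 to 100% identical in their 21 pairs, and the 7 Rhox4 promoters 96.2 to 100%. At least 262 bases were aligned in each Rhox2 pair and 239 in each Rhox4 pair. Only pairs with at least 200 aligned bases were used. Not all Rhox3 pairs reached that length, and Rhox3g reached it with no other copy, so no Rhox3 range is given. A Rhox2 window held 5 to 9 CpG, a Rhox3 window 2 to 4 and a Rhox4 window 10 to 12. The median over the 28 Rhox windows was 7 CpG, the same as over 27025 promoters of all genes and over 1018 of other X-linked genes. GC content was lower, with a median of 47.8% against 52.7% in all promoters and 50.7% in other X-linked ones.

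Short motifs were searched on both strands of the 300-base windows. CACGTG, the E-box, was in 5 of the 28 Rhox windows, all of them Rhox4 copies, or 17.9% against 7.24% of all promoters. These 5 copies share nearly the same sequence, so they are not independent matches. TATAAA was found in Rhox12 alone (14.2% of all promoters). GGAAGTG was found in Rhox10 alone (11.2% of all promoters), TCCCGC in Rhox11-ps2 alone (20.0%) and TGACGTCA in none (1.88%). A match is a run of letters and not a measured binding site.

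Similarity within subfamilies extends to the transcripts and limits what can be read from single copies. For every run of 50 bases in a member's annotated transcripts, it was counted whether the run also occurs in a transcript of another gene. In Rhox1, Rhox5, Rhox10, Rhox11, Rhox12, Rhox13 and Rhox2-ps 100% of the runs occurred in no other gene, and in Rhox8 95.1% did. The share was 55.3% in Rhox2d, 50.2% in Rhox2h, 48.7% in Rhox2g, 40.4% in Rhox2f and 27.5% in Rhox2c. It was 17.7% in Rhox2b and 8.90% in Rhox2a. In Rhox2e and Rhox3a2 it was 0, so no run of that length tells either of them from its relatives. At 100 bases the share was 89.3% in Rhox2h, 82.3% in Rhox2g, 81.9% in Rhox2d, 9.09% in Rhox2e and 0 in Rhox3a2. How reads shared by several copies were divided is therefore uncertain for the single copies, and the TPM of the copies was also summed: 8 of Rhox2 (Rhox2a to Rhox2h), 7 of Rhox3, 8 of Rhox4 and 2 of Rhox7. A sum depends less on how reads were divided among the copies it holds, though not in full, since TPM is scaled by length and the copies differ in transcript length. The Rhox3 sum leaves out Rhox3b-ps and Rhox3d-ps, which share runs with its copies. Rhox2c and Rhox3c overlap on the same strand, and reads from their overlap cannot be assigned to either with certainty.

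**Figure D1:**
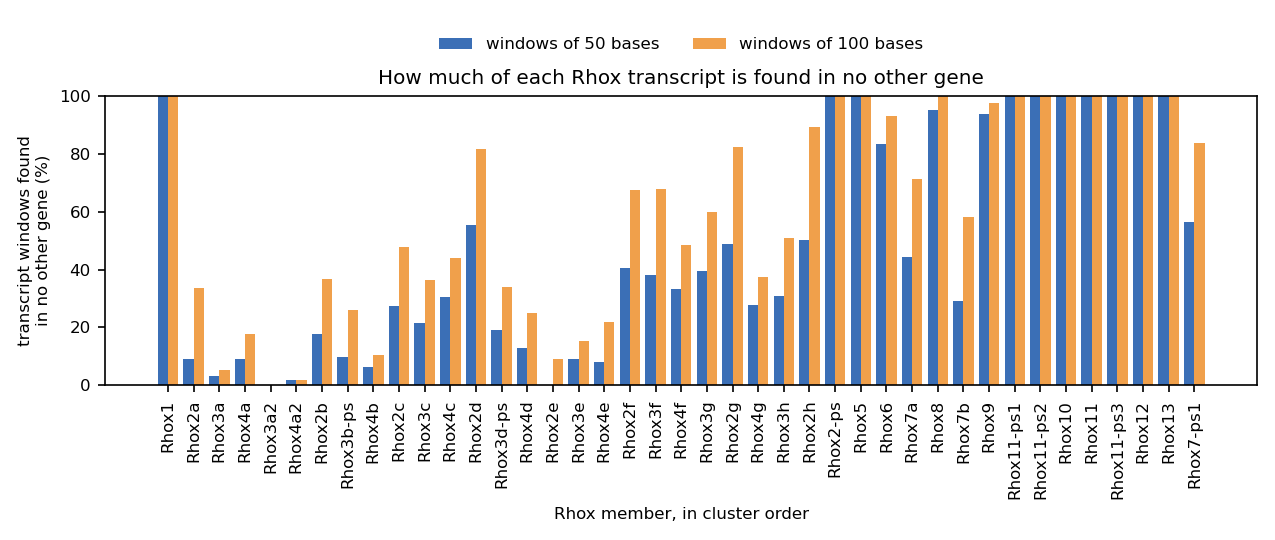
Percentage of 50-base (blue) and 100-base (orange) runs of each Rhox member's annotated transcripts that occur in no other gene, members in cluster order. Rhox1 and the members from Rhox2-ps on are mostly near 100%, apart from the Rhox7 copies, while Rhox2, Rhox3 and Rhox4 copies are low, with Rhox3a2 at 0 for both lengths and Rhox2e at 0 for runs of 50 bases.

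The targeted gene and cell type markers were checked across the series. The Prdm9 row was above 0 in all libraries. It read 6.89 to 12.8 TPM in Prdm9-/- and 19.7 to 34.4 in non-mutant libraries at 16 dpp, but 4.77 to 8.98 against 1.82 to 6.10 at 8 dpp. At 12 dpp the library labelled Prdm9-/- replicate 5 read 19.2 and its litter mate labelled Prdm9+/- replicate 4 read 9.16, which goes against their labels, and results that touch 12 dpp were also computed without this litter. All 20 Sertoli markers passed the filter on low values, and their summed level lay between 7840 and 11900 TPM over all libraries. Sox9, a defining Sertoli factor, averaged 105 ± 12.7 TPM in non-mutants at 8 dpp and 64.7 ± 8.00 at 16 dpp (SD, n = 5). The enriched preparation thus carried Sertoli cell RNA at every age. Spermatocyte markers of leptotene and zygotene summed to 127 to 302 TPM in non-mutants at 8 dpp and 1250 to 1750 at 16 dpp. The numbers in the library names run in age order, so age and library order cannot be told apart.

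Rhox8, a Sertoli gene known to respond to androgen, was the most abundant member in all groups. Non-mutant libraries read 324, 426, 371, 339.7 and 342 TPM at 8 dpp, then 253, 296, 298, 299 and 307 at 12 dpp, and 235, 200.1, 220, 217 and 203 at 16 dpp. The 12 dpp libraries all lay below the 8 dpp libraries, and the 16 dpp libraries all lay below the 12 dpp libraries. Means were 361 ± 40.4, 291 ± 21.5 and 215 ± 14.2 TPM, and in Prdm9-/- libraries 328 ± 88.1, 297 ± 26.8 and 216.5 ± 26.1 (SD, n = 5). From 8 to 12 dpp the change of -0.31 on the log2(TPM + 1) scale in non-mutants was not called (SE 0.12, limma adjusted p = 0.0504). It was called in 7 of 38 alternatives, among them median-ratio scaling (-0.41, adjusted p = 0.0175). In mutants the change was -0.11 (adjusted p = 0.553). From 12 to 16 dpp Rhox8 fell by 0.43 on the log2(TPM + 1) scale in non-mutants (SE 0.12, limma adjusted p = 0.00984) and fell by 0.46 in mutants (adjusted p = 0.0113). With median-ratio scaling between libraries the fall in non-mutants was no longer called (fell by 0.33, adjusted p = 0.0773). Over the same step 9 of 20 Sertoli markers fell and 1 rose in non-mutants, and 5 fell and 1 rose in mutants, with medians of -0.29 and -0.25 on the log2 scale. In bulk samples fewer cells of a type and less RNA per cell cannot be told apart.

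The contribution of Rhox8 to the family's summed TPM went from 85.2% at 8 dpp to 58.0% at 12 dpp and 51.0% at 16 dpp in non-mutants. In Prdm9-/- libraries it was 82.8%, 59.7% and 43.5%. The family sum itself was 424, 501 and 421 TPM in non-mutants and 394, 499 and 497.5 in mutants.

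Rhox5, the founding member, first known as Pem and driven by androgen in Sertoli cells, showed the largest change with age of the members tested. It read 2.24, 9.93, 3.38, 3.16 and 7.04 TPM in non-mutants at 8 dpp. At 12 dpp it read 108, 90.8, 95.2, 76.4 and 101. The 2 ages did not overlap. The step was 4.10 on the log2 scale in non-mutants (SE 0.29, limma adjusted p = 1.19e-10) and 3.93 in mutants (adjusted p = 1.89e-10). Rhox5 made up 1.17% of the family's TPM in non-mutants at 8 dpp and 18.9% at 12 dpp. From 12 to 16 dpp the change was -0.28 in non-mutants (adjusted p = 0.533) and 0.29 in mutants (adjusted p = 0.585), and neither passed the test. The RefSeq start of Rhox5, which is used for its promoter window, lies upstream of the gene's start in GENCODE M21, so the window of that gene is not shown.

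Genes that share androgen response or lie downstream of Rhox5 were followed beside it. Of 7 other Sertoli genes known to respond to androgen, 4 rose from 8 to 12 dpp in non-mutants and none fell. These were Tsx (2.86 on the log2 scale, limma adjusted p = 1.1e-07), Drd4 (2.20, 2.4e-07), Eppin, which encodes a protease inhibitor of the male tract (2.11, 5.53e-10), and Tubb3, a tubulin (1.16, 7.36e-05). In mutants 5 of the 7 rose. Of 20 Sertoli markers 7 rose and 8 fell in non-mutants over that step, while the median of the list was 0.05. The androgen receptor and other known regulators of Rhox transcription in somatic cells, 9 genes, gave 2 that rose and 3 that fell. Of 2 genes reported downstream of Rhox5, Unc5c did not pass the filter. The other, Ins2, an insulin gene, did not change from 8 to 12 dpp by the test in either class and fell from 12 to 16 dpp by 1.18 in non-mutants (adjusted p = 0.00642) and fell by 1.61 in mutants (adjusted p = 0.000754).

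**Figure D2:**
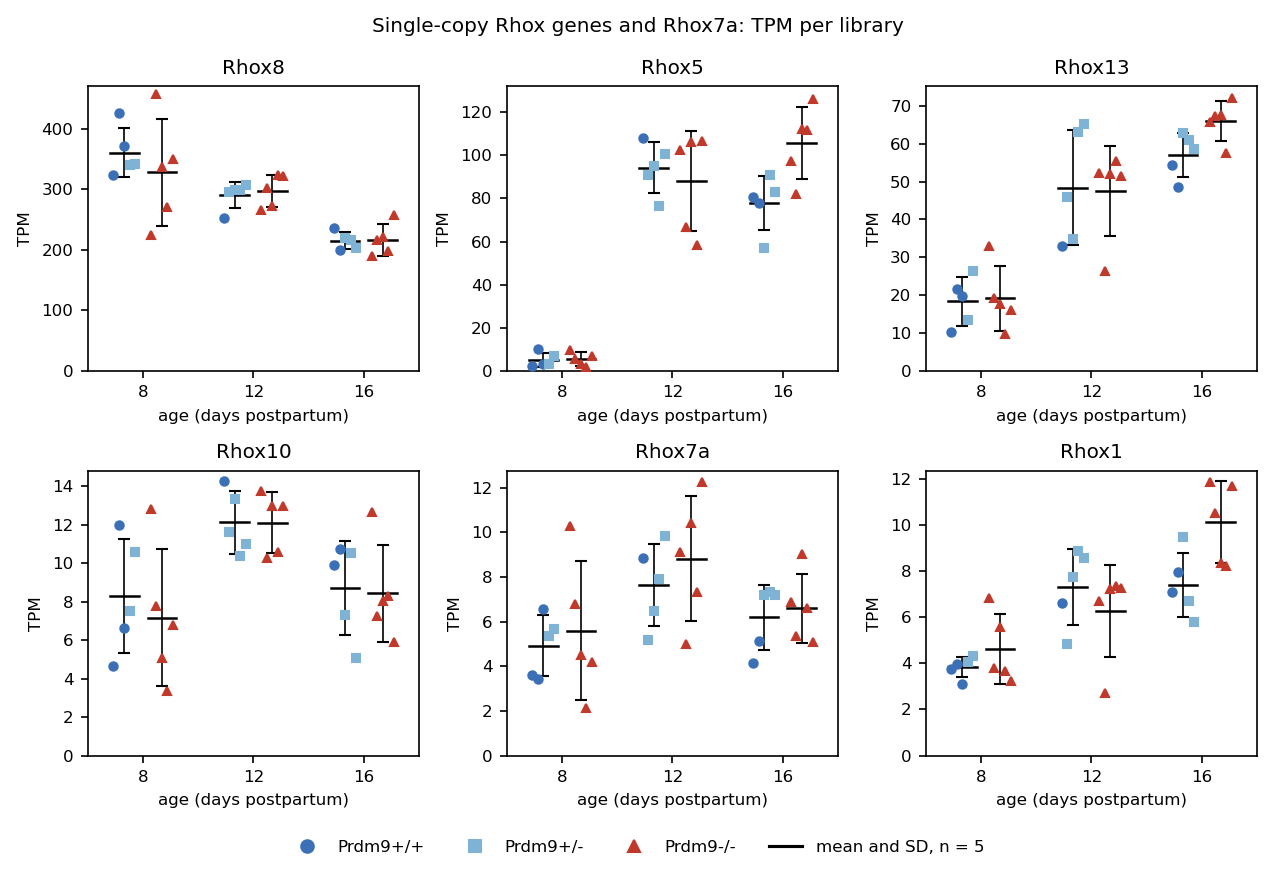
TPM (linear axis from 0) of Rhox8, Rhox5, Rhox13, Rhox10, Rhox7a and Rhox1 by age in days postpartum, 1 symbol per library, with non-mutant libraries left and Prdm9-/- libraries right at each age and bars for the mean and SD of 5 libraries. Rhox5 stands below 10 TPM in all 8 dpp libraries and above 50 in all later ones, and Rhox8 is lowest at 16 dpp.

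Rhox13 is known from differentiating spermatogonia and early spermatocytes. It read 10.3, 21.7, 19.9, 13.6 and 26.4 TPM in non-mutants at 8 dpp and 32.9, 46.1, 34.7, 63.1 and 65.2 at 12 dpp. No non-mutant 8 dpp library reached a non-mutant 12 dpp library, whereas in mutants the ages overlapped, with replicate 1 at 32.9 TPM at 8 dpp and replicate 2 at 26.5 at 12 dpp. It rose by 1.36 on the log2 scale in non-mutants (SE 0.25, limma adjusted p = 9.61e-05) and by 1.32 in mutants (adjusted p = 0.000142). By 16 dpp it averaged 57.1 ± 5.75 TPM in non-mutants and 66.1 ± 5.31 in mutants (SD, n = 5), and neither step from 12 to 16 dpp passed the test. In the same 8 to 12 dpp step 12 of 12 leptotene and zygotene markers rose in both classes.

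Rhox10, which is known for a role in establishing spermatogonial stem cells, was highest on average at 12 dpp. Its means in non-mutants were 8.28 ± 2.97, 12.1 ± 1.63 and 8.70 ± 2.45 TPM at the 3 ages (SD, n = 5). The 8 dpp and 12 dpp libraries overlapped. The 8 to 12 dpp step was 0.55 in non-mutants (limma adjusted p = 0.0793) and rose by 0.78 in mutants (adjusted p = 0.0146). Without Prdm9-/- replicate 4 at 8 dpp the mutant step was 0.58 and was not called (adjusted p = 0.0694). The steps of the 2 classes were not shown to differ, since the difference itself was 0.23 with an adjusted p of 1.0.

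Over all members tested, 7 of 21 rose from 8 to 12 dpp in non-mutants, beside 20.3% of all 20021 rows, and none fell, beside 12.1% of all rows. With median-ratio scaling 2845 rows rose and 3463 fell, against 4067 and 2430 without it. Rhox8, at an adjusted p of 0.0504 in the main limma fit, was called as a fall with that scaling (-0.41, adjusted p = 0.0175). The other 5 that rose were Rhox2-ps (1.46, limma adjusted p = 8.38e-05), Rhox3a2 (0.84, 0.00277), Rhox1 (0.76, 0.0038), Rhox2e (0.95, 0.0472) and Rhox2a (0.63, 0.0334). The Rhox2e call held in 13 of 37 alternatives and was lost when most single libraries of either class were left out, with an adjusted p of up to 0.149, and with median-ratio scaling (0.0709) or quantile normalization (0.0745). The Rhox2a call was lost without Prdm9+/- replicate 2, 3 or 4 at 12 dpp, or without Prdm9+/+ replicate 1 or 3 or Prdm9+/- replicate 1 at 8 dpp (adjusted p from 0.0523 to 0.113), and with median-ratio scaling (0.0629). Without litter 13 at 12 dpp, whose Prdm9 levels go against its labels, neither Rhox2a (0.0995) nor Rhox2e (0.0644) was called. The filter on any value above 0 ended both calls as well (0.0791 and 0.113). In mutants 9 of 21 rose, beside 17.5% of all rows, and none fell, beside 12.2%. Median-ratio scaling gave 2816 rows that rose and 3122 that fell in mutants, against 3496 and 2452.

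The members that rose in mutants but were not called in non-mutants were Rhox10, Rhox7-ps1, Rhox2b and Rhox2d. Rhox7-ps1 rose by 0.83 (adjusted p = 0.00841), Rhox2b by 0.75 (0.0143) and Rhox2d by 0.46 (0.0427). The Rhox2b call was lost without Prdm9-/- replicate 1 or 4 at 12 dpp (adjusted p 0.0551 and 0.0505), and the Rhox2d call without replicate 1 or 2 at 12 dpp or replicate 3, 4 or 5 at 8 dpp (0.0724 to 0.175). The Rhox2d call was also lost with litter as a random effect (0.0626), median-ratio scaling (0.0831) and quantile normalization (0.0866). With litter as a random effect Rhox2b was called in non-mutants too (0.0492). For Rhox2a, which rose by 0.74 in mutants (0.0145), the call was lost without replicate 3 or 4 at 8 dpp (0.0605 and 0.0619). In the test of the difference between the mutant and non-mutant 8 to 12 dpp steps, limma called none of the 21 members and 0.0% of all rows. None of the members had an unadjusted p under 0.05 there, against 367 rows in all. Other X-linked genes transcribed in spermatogonia showed the same direction of step, with 10 of 13 tested rising in non-mutants and 9 of 13 in mutants. Of all 690 other X-linked rows tested 229 rose and 105 fell in non-mutants, and 218 rose and 112 fell in mutants.

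As sums, the Rhox2 copies rose from 8 to 12 dpp by 0.74 in non-mutants (limma adjusted p = 0.00353) and by 0.66 in mutants (adjusted p = 0.00913). The Rhox3 copies rose by 0.87 (0.00306) and 1.03 (0.000617). The Rhox4 copies, relatives of a gene studied in embryonic stem cells, changed by 0.24 and 0.06 and the Rhox7 copies by 0.36 and 0.59, with no call.

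The differences called between mutant and non-mutant libraries were at 16 dpp, in Rhox2 and Rhox3 copies. The summed Rhox2 copies read 25.9 and 30.2 TPM in the Prdm9+/+ libraries and 35.7, 31.5 and 35.7 in the Prdm9+/- libraries. In the Prdm9-/- libraries they read 65.5, 52.6, 55.6, 55.8 and 70.1. The lowest mutant library was above the highest non-mutant library. Means were 31.8 ± 4.14 and 59.9 ± 7.48 TPM (SD, n = 5), a difference of 0.89 on the log2 scale (SE 0.19, limma adjusted p = 0.00355). This difference was called in all 40 alternatives run for it, with an adjusted p of at most 0.0489. Many of these left out only libraries of other ages, which does not move the difference, so the count overstates how far it was tested.

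The summed Rhox3 copies, a subfamily known from germ cells, were low in every library. They read 2.89 and 4.68 TPM in Prdm9+/+, 3.25, 2.99 and 3.30 in Prdm9+/- and 7.49, 9.65, 7.75, 6.01 and 9.54 in Prdm9-/- libraries at 16 dpp. Again the classes did not overlap. The difference was 1.04 (SE 0.22, limma adjusted p = 0.00312), and it was called in 38 of 40 alternatives, many of which left out only libraries of other ages. It was not called against the 2 Prdm9+/+ libraries alone (0.93, adjusted p = 0.22) or with a pseudocount of 0.1 (1.22, adjusted p = 0.426).

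Rhox4 copies alternate with Rhox2 and Rhox3 copies along the same stretch of the chromosome. Their sum averaged 3.06 TPM in non-mutants and 2.73 in mutants at 16 dpp, and the classes overlapped. The difference of -0.14 did not pass the test (SE 0.17, limma adjusted p = 0.791). Rhox7 copies differed by 0.14 (SE 0.24, adjusted p = 0.857). That the Rhox2 and Rhox4 sums moved unequally was not tested as a contrast of its own.

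**Figure D3:**
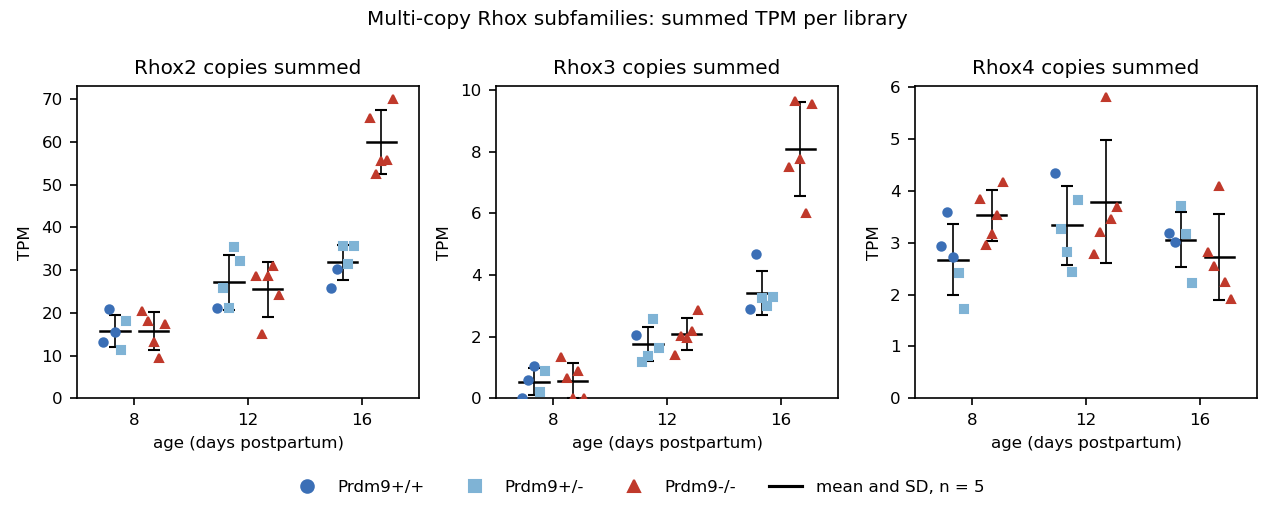
Summed TPM (linear axis from 0) of the 8 Rhox2, 7 Rhox3 and 8 Rhox4 copies by age in days postpartum, 1 symbol per library, non-mutant left and Prdm9-/- right, with the mean and SD of 5 libraries. At 16 dpp all Prdm9-/- libraries lie above all non-mutant libraries for Rhox2 and Rhox3, and the classes overlap for Rhox4.

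Mutants and non-mutants were also set against each other within litters. Since the classes did not overlap in the Rhox2 and Rhox3 sums at 16 dpp, any pairing puts the mutant higher in 5 of 5 pairs. That count therefore adds no support, and the pairs show only the size of the differences. Within the 5 pairs of litter mates the mutant was higher by 0.805 to 0.996 on the log2 scale in the Rhox2 sum. In the Rhox3 sum it was higher by 0.62 to 1.45. For the Rhox4 sum the mutant was higher in 1 of 5 pairs, with differences from -0.36 to 0.34. At 12 dpp the mutant was higher in the Rhox2 sum in 2 of 5 pairs. At 8 dpp 1 litter held 2 mutant and 2 non-mutant animals, which were joined by neighbouring library numbers. Those 2 of the 5 pairs share a litter and could be matched the other way, so no count is given at that age.

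**Figure D4:**
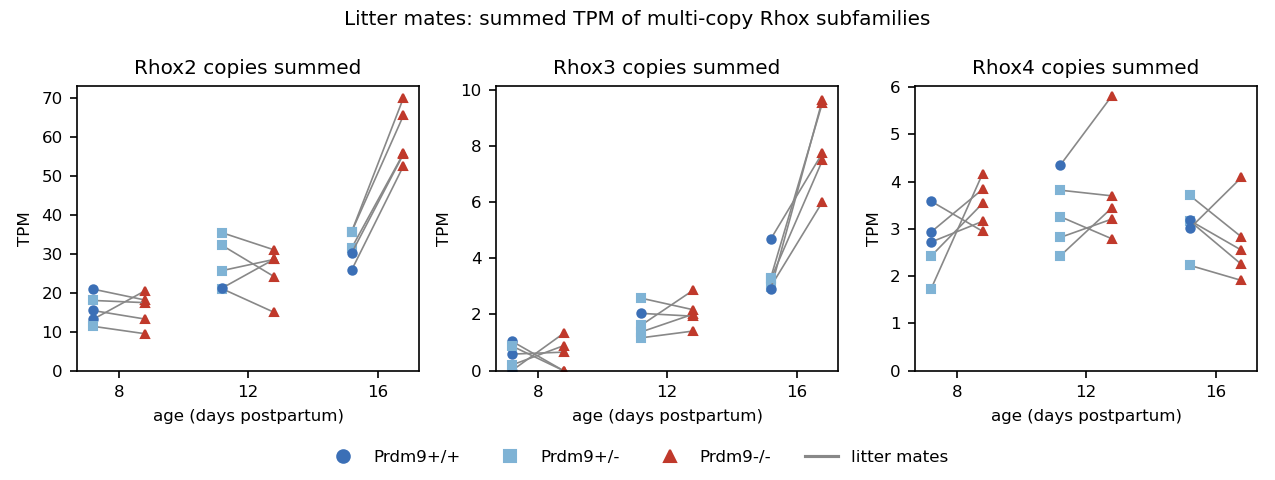
Summed TPM (linear axis from 0) of the Rhox2, Rhox3 and Rhox4 copies in pairs of litter mates, each line joining a non-mutant (left) and its Prdm9-/- mate (right) at 8, 12 and 16 days postpartum, with 2 lines at 8 dpp from 1 litter, joined by neighbouring library numbers. Lines rise in 5 of 5 pairs at 16 dpp for Rhox2 and Rhox3, where the classes do not overlap and any pairing would do so, and in 1 of 5 for Rhox4.

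Among single members, 3 of 21 tested were called higher in mutants at 16 dpp, beside 0.509% of all rows, and none lower, beside 2.75%. With median-ratio scaling 54 rows were higher and 704 lower, against 102 and 551 without it, and Rhox2d was the single member called. Of the members 9 had an unadjusted p under 0.05, against 2473 of 20021 rows. Of 690 other X-linked rows 39 were called higher and none lower, with a median of 0.20 on the log2 scale beside 0.07 over all rows. The median over the 21 members was 0.41. Copies of Rhox2 share reads and weigh on that median, and Rhox2h passed the filter mainly through 16 dpp libraries, so the median is a description only.

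Rhox2d (chrX:37493428-37497623, plus strand) has the largest share of 50-base transcript runs of its own among the Rhox2 copies, though not of 100-base runs. Non-mutant libraries read 2.94, 2.59, 2.82, 2.71 and 3.99 TPM at 16 dpp, and mutants 6.77, 6.41, 7.56, 6.21 and 7.72. The classes were well apart. The difference was 0.99 (SE 0.17, limma adjusted p = 0.000296) and was called in 41 of 41 alternatives, with an adjusted p of at most 0.0128. Many of these alternatives left out only libraries of other ages, which does not move the difference.

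Rhox2b (chrX:37412067-37416806, plus strand) read 2.81, 3.53, 5.11, 6.00 and 4.31 TPM in non-mutants and 9.60, 8.05, 7.61, 8.20 and 8.36 in mutants. All mutants were higher. Its difference of 0.84 (SE 0.23, limma adjusted p = 0.0375) was called in 27 of 41 alternatives. Most of these 27 left out only libraries of other ages, which does not move the difference. Most fits that left out a 16 dpp library lost the call. The call was lost without Prdm9+/+ replicate 1 or 2, Prdm9+/- replicate 3 or any 1 of the 5 Prdm9-/- libraries at 16 dpp (adjusted p from 0.0598 to 0.138). It was also lost against Prdm9+/- alone (0.319) or Prdm9+/+ alone (0.0669). Median-ratio scaling (0.0598), quantile normalization (0.0525), the filter on any value above 0 (0.0548) and a pseudocount of 0.1 (0.0918) ended the call too.

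Rhox3a2 (chrX:37380028-37384493, plus strand) has no transcript run of its own, and its value is an estimate within the Rhox3 copies. It read 1.39, 2.72, 1.63, 1.63 and 2.27 TPM in non-mutants and 3.81, 4.36, 4.98, 1.56 and 5.90 in mutants, where replicate 4 lay within the non-mutant range. The difference was 0.75 (SE 0.21, limma adjusted p = 0.0398), called in 25 of 41 alternatives. Most of these 25 left out only libraries of other ages, which does not move the difference. Most fits that left out a 16 dpp library lost the call. It was lost without Prdm9+/+ replicate 1, Prdm9+/- replicate 1, 2 or 3, or Prdm9-/- replicate 1, 2, 3 or 5 at 16 dpp (adjusted p from 0.0705 to 0.155). It was also lost with litter as a fixed block among 16 dpp libraries (0.0632) and among those libraries with no litter term (0.155). Against Prdm9+/+ alone (0.391) or Prdm9+/- alone (0.082) it was not called either. Median-ratio scaling (0.0709), quantile normalization (0.0602), the filter on any value above 0 (0.0589) and a pseudocount of 0.1 (0.375) ended the call too.

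The other Rhox2 copies had differences on the same side that did not pass the test over all 30 libraries. Rhox2a averaged 12.8 ± 1.46 TPM in non-mutants and 20.7 ± 3.33 in mutants (SD, n = 5), a difference of 0.65 (limma adjusted p = 0.15). For Rhox2c the difference was 0.84 (0.102), for Rhox2e 0.83 (0.332), for Rhox2f 0.75 (0.163), for Rhox2g 0.80 (0.0729) and for Rhox2h 0.80 (0.0906). No value overlapped between classes in Rhox2a, Rhox2b, Rhox2d, Rhox2e and Rhox2g, 5 of 21 members, beside 2.07% of all rows that were higher in every mutant. These copies share reads and are not independent rows, so their count cannot be weighed against that share. With litter as a random effect 7 members were called: Rhox2a, Rhox2b, Rhox2c, Rhox2d, Rhox2g, Rhox2h and Rhox3a2. With litter as a fixed block among 16 dpp libraries 7 were called as well, namely Rhox2a, Rhox2b, Rhox2d, Rhox2e, Rhox2f, Rhox2g and Rhox2h. Without a litter term, the 16 dpp libraries alone called Rhox2a (0.0166), Rhox2b (0.0188), Rhox2c (0.0421), Rhox2d (0.00242) and Rhox2g (0.0224). Rhox2c was also called without Prdm9+/- replicate 1 at 16 dpp (0.0296) and Rhox2h without Prdm9-/- replicate 4 at 16 dpp (0.04). Rhox2g was called without Prdm9+/- replicate 1 or 4 at 12 dpp (0.0458 and 0.0386).

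**Figure D5:**
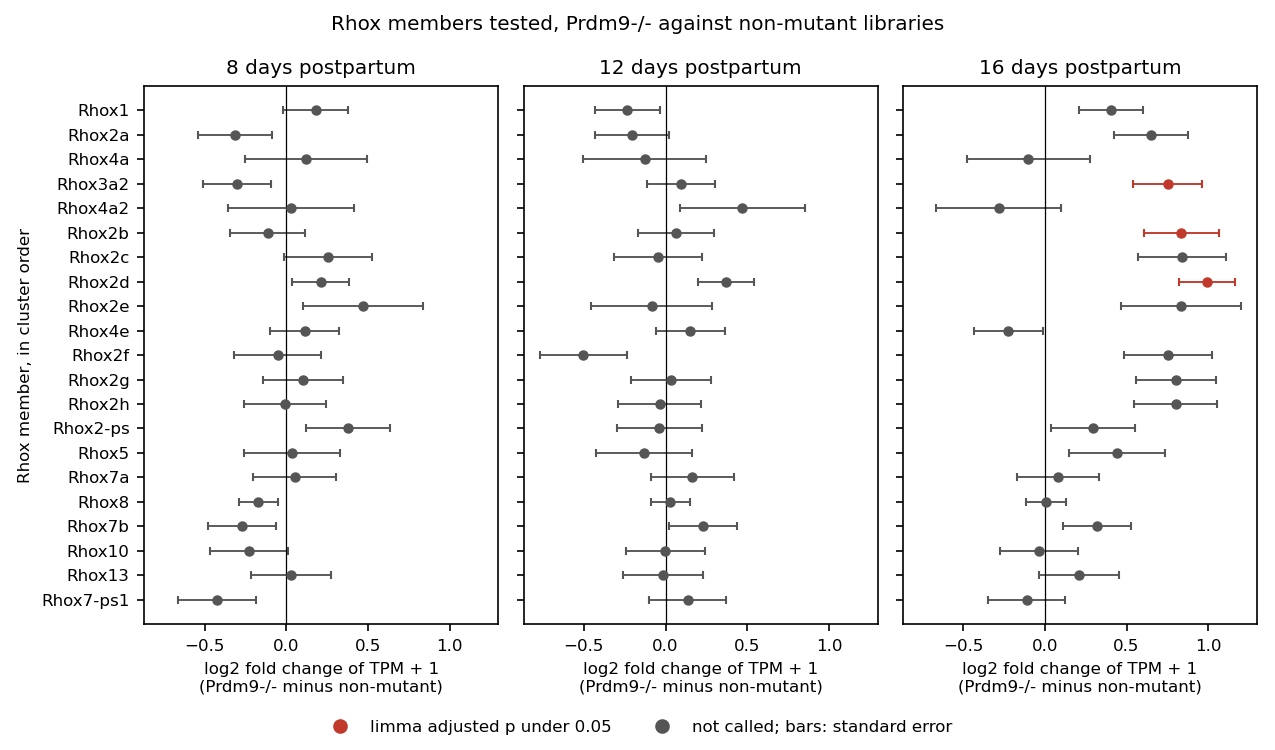
Difference in log2(TPM + 1) between Prdm9-/- and non-mutant libraries for the 21 members tested, in cluster order, at 8, 12 and 16 days postpartum, with standard errors from limma and red points for an adjusted p under 0.05. At 16 dpp all Rhox2 copies from Rhox2a to Rhox2h lie between 0.65 and 0.99, with Rhox3a2, Rhox2b and Rhox2d called.

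Members outside the tandem copies of Rhox2, Rhox3 and Rhox4 gave smaller differences at 16 dpp than the Rhox2 copies. Rhox8 differed by 0.01 (SE 0.12, limma adjusted p = 0.991), Rhox10 by -0.04 (0.969) and Rhox13 by 0.21 (0.782). Rhox5 read 80.6, 78.0, 56.8, 91.0 and 83.2 TPM in non-mutants and 97.6, 82.0, 112, 112 and 126 in mutants. These ranges overlapped, and the difference of 0.44 did not pass the test (SE 0.29, adjusted p = 0.587). The mutant was the higher mate in 5 of 5 litters, by 0.02 to 0.77. Rhox1, at the end of the cluster beside Rhox2a, differed by 0.41 (adjusted p = 0.405) and was higher in the mutant in 5 of 5 litters, by 0.07 to 0.90. How many of all rows were higher in 5 of 5 litters was not counted, so both litter counts are a description only. Rhox2-ps, a pseudogene that shares no 50-base run with the copies, averaged 4.01 ± 0.75 and 5.10 ± 0.54 TPM (SD, n = 5), a difference of 0.29 (adjusted p = 0.708).

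At 12 dpp limma called none of the 21 members between mutants and non-mutants, and 0.0% of all rows; 1 member, Rhox2d, had an unadjusted p under 0.05, against 225 rows. At 8 dpp it also called none of the members and 0.0% of all rows, and no member had an unadjusted p under 0.05, against 417 rows. Rhox2 sums averaged 27.1 ± 6.47 TPM in non-mutants and 25.5 ± 6.36 in mutants at 12 dpp, and 15.8 ± 3.81 and 15.8 ± 4.36 at 8 dpp (SD, n = 5). The classes overlapped at both ages. Among non-mutants, Prdm9+/- was set against Prdm9+/+ with age as a factor. None of 18 members tested was called, beside 0.0% of 18668 rows, and none had an unadjusted p under 0.05, against 1972 rows.

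From 12 to 16 dpp 7 of the 8 Rhox2 copies rose in mutants. In mutants 9 of 21 members rose, beside 6.21% of all rows, and 1, Rhox8, fell, beside 5.89%. They were Rhox2d (1.12 on the log2 scale, limma adjusted p = 5.48e-05), Rhox2a (1.02, 0.00303), Rhox2b (0.98, 0.00466), Rhox2c (1.08, 0.00782), Rhox2f (1.26, 0.00191), Rhox2g (1.07, 0.00391), Rhox2h (1.13, 0.00314), Rhox3a2 (1.05, 0.00112) and Rhox1 (0.66, 0.0255). The remaining copy, Rhox2e, had a step of 1.09 that did not pass (adjusted p = 0.051) and was called with litter as a random effect (0.0486). The Rhox1 call was lost without Prdm9-/- replicate 2 at 12 dpp (0.44, adjusted p = 0.106) or replicate 1, 2 or 5 at 16 dpp (adjusted p from 0.0526 to 0.0733). In 11 members every mutant library at 16 dpp lay above every one at 12 dpp, beside 6.69% of all rows. Rhox2 copies, which share reads and are not independent rows, made up most of this count and of the 9 that rose. Neither count can be weighed against the share of all rows. The Rhox2 sum rose by 1.24 (SE 0.19, adjusted p = 5.9e-05) and the Rhox3 sum by 1.56 (SE 0.22, adjusted p = 1.53e-05).

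In non-mutants 1 of 21 members rose over that step, Rhox2d by 0.49 (limma adjusted p = 0.0387), beside 8.88% of all rows, and 1 fell, Rhox8, beside 13%. With median-ratio scaling 2623 rows rose and 1573 fell, against 1777 and 2595 without it. The Rhox2d call was lost without Prdm9+/- replicate 1, 2 or 4 at 12 dpp, or without Prdm9+/- replicate 2 or 3 or Prdm9+/+ replicate 1 at 16 dpp (adjusted p from 0.0516 to 0.126). It was also lost with litter as a random effect (adjusted p = 0.0581), without litter 13 at 12 dpp (0.0804) and with the filter on any value above 0 (0.067). The Rhox2 sum changed by 0.24 (adjusted p = 0.385), and the Rhox3 sum rose by 0.69 (adjusted p = 0.0233), a call lost without Prdm9+/- replicate 1 or 2 at 12 dpp or Prdm9+/+ replicate 2 at 16 dpp (0.0556 to 0.0707).

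A test of the difference between the mutant and non-mutant 12 to 16 dpp steps called none of the 21 members, beside 1.35% of all rows, while 9 members had an unadjusted p under 0.05, against 1462 rows. For the Rhox2 sum the difference was 0.99 (SE 0.27, limma adjusted p = 0.0662). It was called with litter as a random effect (adjusted p = 0.0088), without Prdm9+/- replicate 2 at 12 dpp (0.0489) and without Prdm9-/- replicate 4 at 8 dpp (0.035). For the Rhox3 sum it was 0.87 (adjusted p = 0.295). Rhox2f differed by 1.26 (adjusted p = 0.129), and was called with litter as a random effect (0.0396) and without Prdm9-/- replicate 3 at 12 dpp (0.0347).

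Marker lists and genes around the cluster were read beside the 16 dpp difference. Pachytene and diplotene markers fell, 8 of 9 tested, with a median of -3.15, and their sum was 174 to 213 TPM in mutants and 366 to 1690 in non-mutants. Of 12 leptotene and zygotene markers none was called, with a median of -0.17 and sums of 1120 to 1690 TPM in mutants against 1250 to 1750. None of 13 markers of undifferentiated spermatogonia tested and none of 8 of differentiating spermatogonia was called, and their summed levels overlapped between classes, 618 to 779 against 574 to 807 TPM and 630 to 723 against 575 to 676. Sertoli markers gave none of 20 called, with a median of 0.09 and sums of 9310 to 10600 against 9200 to 10000 TPM. Leydig cell, macrophage and erythroid markers had medians of 0.63, 0.57 and 0.97 with none called. The part of these cell types in the Rhox2 and Rhox3 difference was not tested.

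Rows within 1 Mb of the cluster, or between its members, numbered 63, of which 29 were tested and 4 were called higher in mutants. These were Gm6268 (1.24, limma adjusted p = 0.0399), Gm9 (0.85, 0.0156), Ube2a, a ubiquitin-conjugating enzyme (0.43, 0.029), and Pgrmc1, a haem-binding membrane protein (0.31, 0.0254). The median of the 29 was 0.19, beside 0.20 in other X-linked rows. Of 11 enzymes of DNA methylation and demethylation none was called (median 0.10), and of 11 repressors of retroelements and histone H3K9 methylation genes 1 fell (median 0.05). Among other X-linked genes transcribed in spermatogonia none of 13 tested was called (median 0.25), and among homeobox genes outside the cluster none of 12 (median 0.02).

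The remaining 20 members did not pass the filter of over 1 TPM in at least 5 libraries. Their highest single value was 2.89 TPM, in Rhox3e. Rhox6 and Rhox9, known from placenta and ovary, reached 1.51 and 1.14 TPM, and Rhox11, known from testis, reached 1.46. Rhox12 reached 0.31 TPM. Rhox3g, Rhox11-ps1 and Rhox11-ps3 were listed at 0 in all 30 libraries. Of the members that passed, Rhox4a, Rhox4e and Rhox2h did so with 7, 9 and 10 libraries over 1 TPM.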

How the data were processed

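Per the labels' protocols, tubules from testes were digested and washed free of interstitial cells before RNA extraction. Deposited values are the authors' TPM per gene. The submitters' processing notes name Bowtie 1.0.0, RSEM 1.2.8 and the build mm10 (GRCm38), with no order. Use of read strand is not given in the sources used here. Between 3.23 and 3.95% of each library's TPM lies outside the rows held. Depth is unknown, so precision rests on the spread between animals. The members and gene lists were chosen with earlier results of these data known. Every member could be named, with values by library where a result turned on it; from other lists up to 4 called genes were named by smallest adjusted p.

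Rows over 1 TPM in at least 5 libraries, 20021 in all, were fitted as log2(TPM + 1) with limma-trend (limma 3.58.1 in R 4.3.3), using 6 groups of class and age. For Prdm9+/- against Prdm9+/+, 18668 rows were fitted, age being a factor. Benjamini-Hochberg adjustment ran over all rows fitted, with a threshold of 0.05. The code was tested on simulated data. Fold changes on this scale understate the change of low members. A count test, named in the design in case the table held counts, did not apply. Summed copies replaced their members in the same fit. Alternatives used a pseudocount of 0.1, other filters, scalings, control genotypes and litter terms, or left out libraries; those of the sums were chosen after seeing the data. Litters come from the header of the deposited table. In the 15 pairs of litter mates, joined by neighbouring library numbers where a litter held 2 pairs, deviations from group means correlated at 0.073 to 0.39, with 13 over 0.1 and a median of 0.24. Promoters were compared with Biopython 1.88.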

Additional observations from a re-analysis of the deposited data

Results flagged for a closer look

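Within groups of 5 libraries, the most distant library was set against the others by Dixon's gap criterion. Of 149 groups of values of members or sums 10 had such a library, where chance gives about 1 in 20. That rate is for normally distributed values, while both Rhox4a groups named below held 0 in all libraries but 1. Sums share values with their copies, so the groups are not independent. The count therefore cannot be weighed against that rate. In Prdm9-/- libraries at 12 dpp, replicate 2 was low in Rhox1 (2.71 TPM, the next 6.72) and in Rhox13 (26.5, the next 51.4), and replicate 4 was high in Rhox2g (3.01, the next 1.62). In the same genotype at 16 dpp, replicate 5 was high in Rhox2f (5.83, the next 3.68) and replicate 2 was the only library above 0 in Rhox4a (0.40). At 8 dpp, Prdm9-/- replicate 5 was at 0.0 in Rhox2h, where the next was 0.47. Among non-mutants at 16 dpp, Prdm9+/- replicate 3 was high in Rhox2d (3.99, the next 2.94) and alone above 0 in Rhox4a (0.99), and Prdm9+/+ replicate 2 was high in the Rhox3 sum (4.68, the next 3.30). The single Prdm9+/+ library at 12 dpp was low in Rhox8 (252.84, the next 295.71).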

How the results depend on the processing

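No member or sum changed direction from a called value in the 8954 refits of single results, while 98 lost and 64 gained a call. At 16 dpp, 3 members were called between classes. The count was 1 against Prdm9+/+ or Prdm9+/- alone, 1 with median-ratio or quantile scaling or a pseudocount of 0.1, 5 among 16 dpp libraries alone, and 7 with either replicate block, litter as a random effect or as a fixed term. Leaving out 1 library gave 1 to 4, and 1 without Prdm9+/+ replicate 1, Prdm9+/- replicate 3 or Prdm9-/- replicate 1, 2, 3 or 5. Of 4 sums 2 were called, and 1 against Prdm9+/+ alone or with a pseudocount of 0.1. For 12 to 16 dpp in non-mutants 2 members became 1 with the filter on any value above 0, median-ratio scaling, litter as a random effect or without litter 13 at 12 dpp, and 1 to 2 with a library left out; the single sum called became 0 with a pseudocount of 0.1 and 0 to 1 with a library left out. In mutants 10 became 4 with copies summed, and 9 to 11 with a library left out. For the difference of these steps 0 members and 0 sums became 1 each with litter as a random effect, and 0 to 1 with a library left out. For 8 to 12 dpp the 7 and 9 members called became 5 to 10 and 6 to 10 with a library left out. The litter block changed no other count by over 1.5 times. The causes were not tested. Low copies rest on few TPM and unknown depth, and their reads can be shared.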
